A study of Rattus norvegicus with 9 samples.

Results

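The genes described here are 10 that license and open replication origins: the helicase subunits Mcm2, Mcm3, Mcm4, Mcm5, Mcm6 and Mcm7, the loading factors Cdc6 and Cdt1, and the helicase partners Cdc45 and Mcm10. They were listed by gene name, not by a cut on their values, from the 20645 genes of the expression table. The list was made with earlier results of these data known, so it was not a blind choice. Each of the 10 passed the filter on low values, a mean of at least 1 FPKM (fragments per kilobase of transcript, scaled to the size of the library) over all libraries, and so was among the 12958 genes tested.

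Before S phase, origins are marked by the origin recognition complex (ORC). Cdc6 and Cdt1 then load the ring of Mcm2 to Mcm7 onto DNA in an inactive form, a step known as licensing, and geminin holds Cdt1 in check once replication has begun. Cdc45 and the GINS complex join the ring at the start of S phase to make the active helicase, and Mcm10 assists its activation. The transcripts of these genes rise towards the G1/S transition under E2F factors, so they are widely used as readouts of proliferation. Mature pancreatic beta cells divide rarely, whereas insulinoma lines divide in culture.

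The cells were INS-1E, a rat insulinoma line that secretes insulin. The control group received fatty acid-free BSA, the carrier of the fatty acid, the PA group received palmitic acid (PA), and the PA + C3G group received PA together with cyanidin-3-O-glucoside (C3G), an anthocyanin, all for 24 h. The study's methods give 50 µM for C3G in the sequenced cells and 0.5 mM for PA in its insulin secretion assay. Each group held 3 mRNA libraries, and all come from 1 cell line with no C3G-only group.

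Total estimated counts per library ran from 45559993 to 66730721, with the lowest total in PA + C3G replicate 3. All 7 beta cell markers exceeded a mean of 1 FPKM. Their summed level was 44620 to 45360 FPKM with BSA, 18330 to 19020 with PA and 41130 to 47020 with PA + C3G. That sum is carried by insulin transcripts and hides differences among the markers. Relative to BSA, Ins1 was at 51.6% with PA and 120.1% with PA + C3G, and Ins2 at 13.6% and 50.9%. The glucose transporter Slc2a2 was at 20.2% and 33.7%, and the transcription factor Nkx6-1 at 104.1% and 151.9%. Of the rest of these 7 markers, Iapp was at 74.5% and 106.7%, Pdx1 at 64.3% and 99.8%, and Mafa at 55.5% and 82.1%. The other islet hormones summed to 9.55 to 31.9 FPKM with BSA, 2.68 to 7.01 with PA and 5.37 to 23.1 with PA + C3G. Most of that was Gcg, which fell with PA (log2 fold change −2.50, adjusted p = 0.0149 by edgeR's quasi-likelihood test, a call lost without BSA replicate 1 or PA replicate 3, at an adjusted p of up to 0.0507). The part of these markers in the results below was not tested. Summed acinar markers reached at most 0.120 FPKM, fibroblast markers 0.0963 and macrophage markers 0.674. These sums cover only markers found by name, 2 of 4 acinar, 2 of 3 fibroblast and 2 of 3 macrophage. Of the other islet hormones 2 of 4 were found (Gcg and Ghrl), and of the endothelial markers 0 of 2. The study describes its experiments in general as biological triplicates and collected 3 samples per group for sequencing, and the p-values measure the spread between these samples.

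All 10 genes were lower in the PA group than in the BSA group, and all 10 were higher in the PA + C3G group than in the PA group without reaching the BSA level. The fall with PA ran from 1.73-fold for Mcm4 to 6.64-fold for Cdc6. The rise with C3G ran from 1.17-fold for Mcm7 to 3.02-fold for Cdc6. In every one of the 10 genes the 3 groups of libraries were fully separated, with BSA highest, PA + C3G in the middle and PA lowest.

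**Figure D1:**
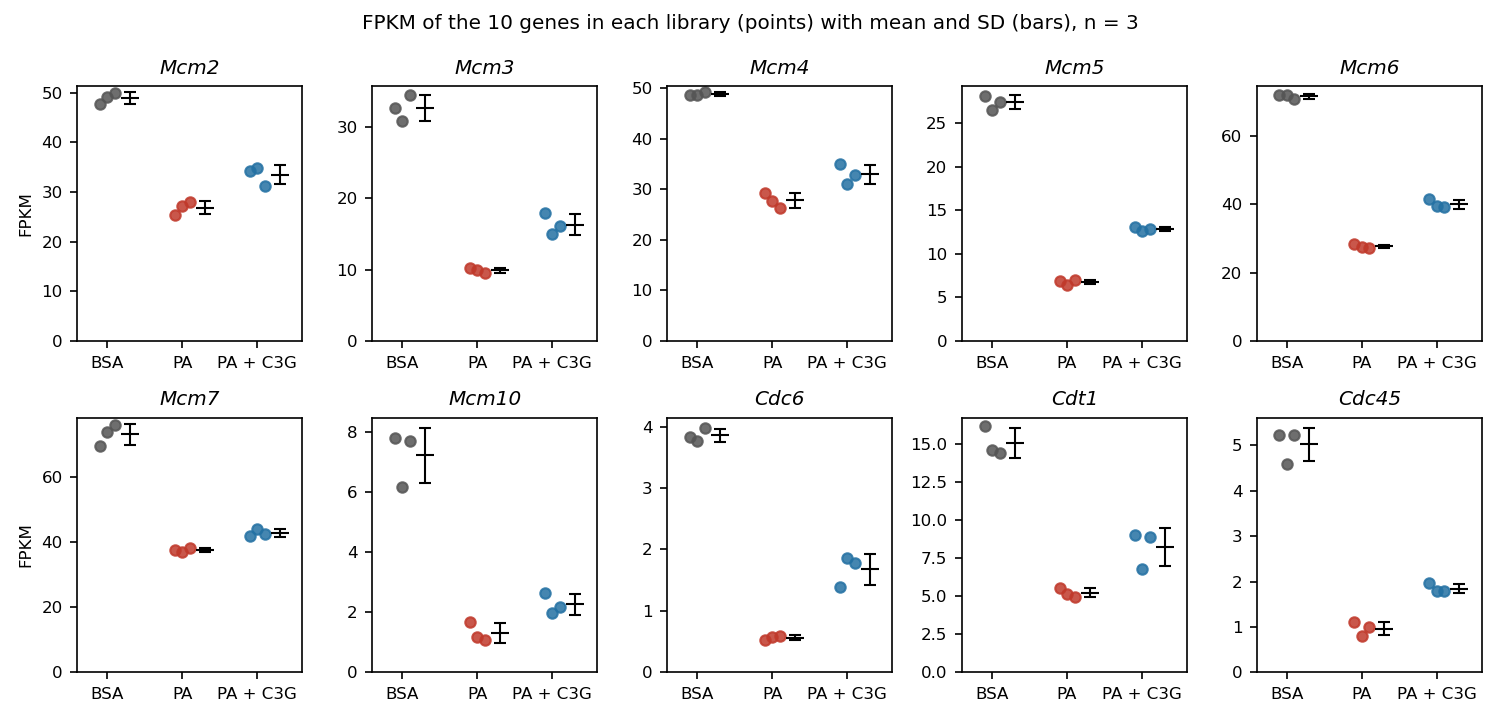
FPKM (linear axis from 0) of each gene in the 9 libraries, as points by group, with the group mean and SD as bars. In each of the 10 panels the PA + C3G points lie above all PA points and below all BSA points.

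Against these counts stand wide changes across the transcriptome. At an adjusted p-value under 0.05 (edgeR's quasi-likelihood test, Benjamini-Hochberg over 12958 genes), 25.2% of all genes tested were lower with PA than with BSA and 25.8% were higher. In PA + C3G versus PA, 11.1% were higher and 10.2% lower, and in PA + C3G versus BSA 17.9% were lower and 19.0% higher. Groups that did not overlap were found in 59.9% of all genes for PA versus BSA, in 39.5% for PA + C3G versus PA and in 50.3% for PA + C3G versus BSA. The median log2 fold change of the 10 genes was −1.60 with PA, 0.72 for PA + C3G versus PA and −0.87 for PA + C3G versus BSA, where the medians over all genes tested were 0.00, −0.00 and 0.01. The PA libraries enter the comparisons with BSA and with PA + C3G, so the fall and the rise share samples and are given side by side only.

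The study called genes differentially expressed at a fold change above 2 and p under 0.05, without saying whether p was adjusted. With that criterion, applied here to the unadjusted p-value of the edgeR test, 7 of the 10 fell with PA, against 4.26% of all genes. Mcm2, Mcm4 and Mcm7 fell by less than that fold. In PA + C3G versus PA only Cdc6 met it in the rising direction, against 0.702% of all genes. In PA + C3G versus BSA, Mcm5, Mcm10, Cdc6 and Cdc45 were lower by it, against 2.77% of all genes.

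Among the loading factors, Cdc6 (ENSRNOG00000027787, chromosome 10, 86819472 to 86833402, plus strand in the deposited table, whose genome build is not given in the sources used here) is the ATPase that recruits the helicase to ORC. It was at 3.83, 3.76 and 3.98 FPKM in the BSA libraries, 0.526, 0.574 and 0.601 in the PA libraries, and 1.39, 1.86 and 1.78 in the PA + C3G libraries. The PA libraries held 101 to 121 estimated counts of Cdc6, the thinnest coverage of the 10. Its log2 fold change was −2.73 (standard error 0.146, adjusted p = 4.07e-07) for PA versus BSA, and 45 of the 12958 genes fell further. The rise against PA was 1.60 on the same scale (standard error 0.142, adjusted p = 0.00018), and 38 genes rose further. On the log2(FPKM + 1) scale, where the added 1 is close to these levels, the fall was −1.63 and the rise 0.77. Cdc6 in the PA + C3G group was at 43.5% ± 6.57 (SD, n = 3) of the BSA mean, from 14.7% ± 0.975 (n = 3) in the PA group.

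Cdt1 (ENSRNOG00000013970, chromosome 19, 55381565 to 55386511, plus strand) brings the Mcm2 to Mcm7 ring to ORC and Cdc6. Its levels were 16.2, 14.6 and 14.4 FPKM with BSA, 5.58, 5.17 and 4.97 with PA, and 9.02, 6.81 and 8.92 with PA + C3G. The second PA + C3G library was the lowest of its group and still above every PA library. The log2 fold change was −1.50 (standard error 0.116, adjusted p = 4.31e-06) with PA and 0.69 (standard error 0.114, adjusted p = 0.00314) for the rise with C3G. Its partner and inhibitor geminin (Gmnn) moved the same way, with a mean of 15.8 ± 1.61 FPKM over the BSA libraries, 4.43 ± 0.448 over the PA libraries and 6.77 ± 1.47 over the PA + C3G libraries (SD, n = 3 per group). The ratio of Cdt1 to Gmnn FPKM averaged 0.959 ± 0.0642 in BSA, 1.19 ± 0.0586 in PA and 1.23 ± 0.124 in PA + C3G libraries (SD, n = 3 per group). The PA and PA + C3G ratios overlapped (exact two-sided permutation test, p = 0.6, n = 3 each), while those of PA and BSA did not (p = 0.1 by the same exact test, the smallest that 3 against 3 libraries allow).

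The 6 ring subunits form 1 complex in equal numbers, each being an AAA+ ATPase, and their transcripts fell unequally. The largest drop was in Mcm5 (ENSRNOG00000014336, chromosome 19, plus strand, start 14523554, end 14561278). Its levels were 28.1, 26.5 and 27.5 FPKM with BSA, 6.86, 6.47 and 6.97 with PA, and 13.1, 12.6 and 12.8 with PA + C3G. These are narrow and widely spaced groups, at log2 fold changes of −1.99 (standard error 0.0442, adjusted p = 5.46e-09) with PA and 0.96 (standard error 0.0434, adjusted p = 1.12e-05) for PA + C3G versus PA.

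Mcm3 (ENSRNOG00000012543, chromosome 9, 26914057 to 26932201, minus strand) lies beside Mcm5 in the ring. It was at 32.7, 30.9 and 34.5 FPKM with BSA, 10.3, 9.95 and 9.48 with PA, and 17.9, 15.0 and 16.1 with PA + C3G. The PA + C3G mean was 49.9% ± 4.52 (SD, n = 3) of that with BSA, against 30.3% ± 1.21 (n = 3) with PA alone. The log2 fold changes were −1.70 with PA (adjusted p = 1.15e-07) and 0.76 for PA + C3G versus PA (adjusted p = 0.000223, same edgeR test).

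Mcm6 (ENSRNOG00000003703, chromosome 13, 45042882 to 45068077, minus strand), a core subunit that with Mcm4 and Mcm7 shows helicase activity in vitro, was at 72.1, 71.9 and 70.7 FPKM with BSA, 28.2, 27.5 and 27.3 with PA, and 41.4, 39.5 and 39.0 with PA + C3G. Its log2 fold changes were −1.35 with PA (standard error 0.0371, adjusted p = 1.4e-08) and 0.57 for the rise with C3G (standard error 0.0367, adjusted p = 3.22e-05). With 4380 to 14418 estimated counts per library over the groups, Mcm6 had the smallest standard error of the 10.

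Mcm7, Mcm2 and Mcm4 fell least. Mcm7 (ENSRNOG00000001349, chromosome 12, 19306607 to 19314016, minus strand) was at 69.7, 74.0 and 76.0 FPKM with BSA, 37.6, 36.9 and 38.2 with PA, and 41.8, 44.1 and 42.5 with PA + C3G. Its rise with C3G was the smallest of the 10, a log2 fold change of 0.22 (95% confidence interval 0.13 to 0.318, adjusted p = 0.00562 by the edgeR test), and 0.14 when each library was rescaled to the same FPKM sum. The Mcm7 locus also holds the microRNA genes Mir25, Mir93 and Mir106b on the same strand, listed at no more than 10.3, 3.15 and 5.73 FPKM, and how reads were divided among them is not given.

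Mcm2 (ENSRNOG00000016316, chromosome 4, 120825699 to 120840111, minus strand), which also carries a histone-binding tail, was at 47.7, 49.2 and 50.0 FPKM with BSA, 25.4, 27.2 and 28.0 with PA, and 34.3, 35.0 and 31.3 with PA + C3G. Mcm4 (ENSRNOG00000001833, chromosome 11, 89511191 to 89524892, plus strand), a main target of the origin-firing kinase Cdc7, was at 48.7, 48.6 and 49.3 FPKM with BSA, 29.3, 27.7 and 26.3 with PA, and 34.9, 31.1 and 32.9 with PA + C3G. Their log2 fold changes with PA were −0.84 and −0.79 (adjusted p = 1.27e-06 and 1.93e-06), and for PA + C3G versus PA 0.36 and 0.28 (adjusted p = 0.002 and 0.00604). Relative to the BSA mean these 2 genes stood highest in the PA + C3G group, at 68.4% ± 3.96 (SD, n = 3) for Mcm2 and 67.5% ± 3.91 (n = 3) for Mcm4, and their libraries overlapped each other on that scale.

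**Figure D2:**
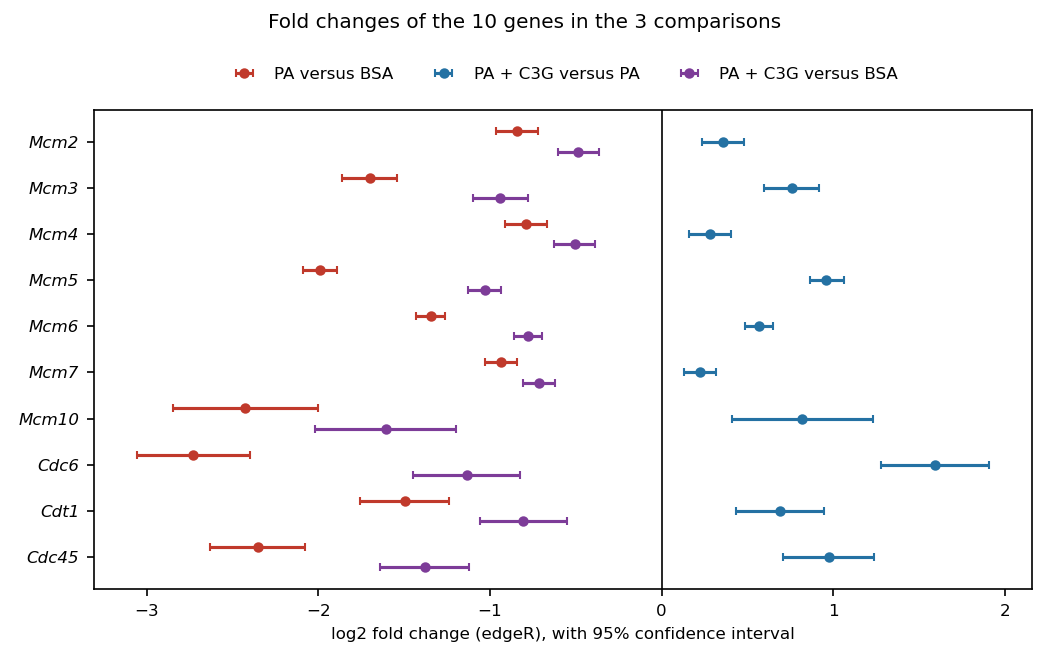
log2 fold changes (x axis) of the 10 genes with their 95% confidence intervals from edgeR, in the 3 comparisons by colour. All 10 lie below 0 for PA versus BSA and PA + C3G versus BSA and above 0 for PA + C3G versus PA, with Cdc6 at both ends (−2.73 and 1.60).

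The sum of the 6 subunits' FPKM averaged 302.7 ± 4.67 in BSA, 136.6 ± 1.01 in PA and 178.4 ± 4.53 in PA + C3G libraries (SD, n = 3 per group). The composition of that sum also differed between the groups, a measure that does not depend on how libraries are scaled against each other. In the BSA libraries the highest subunit was 2.71 ± 0.124 times the lowest per length. This ratio was 5.56 ± 0.126 in the PA libraries and 3.34 ± 0.157 in the PA + C3G libraries (SD, n = 3 per group). The 3 groups did not overlap, and each pair gave p = 0.1 by the exact two-sided permutation test, the smallest that n = 3 each allows.

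Mcm5, the lowest subunit in every group, made up 9.04% ± 0.317 of the sum in BSA, 4.95% ± 0.174 in PA and 7.19% ± 0.132 in PA + C3G libraries (SD, n = 3 per group). Mcm3 went from 10.8% to 7.25% and 9.15% of the sum in the same order of groups, and Mcm6 from 23.7% to 20.3% and 22.4%. The shares of Mcm7, Mcm4 and Mcm2 moved the other way with PA, to 27.5%, 20.4% and 19.7% from 24.2%, 16.1% and 16.2%. With PA + C3G the share of Mcm7 was 24.0%, overlapping the BSA libraries, and that of Mcm2 was 18.8%, overlapping the PA libraries. Relative abundance of transcripts is not that of proteins, which were not measured in these files.

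**Figure D3:**
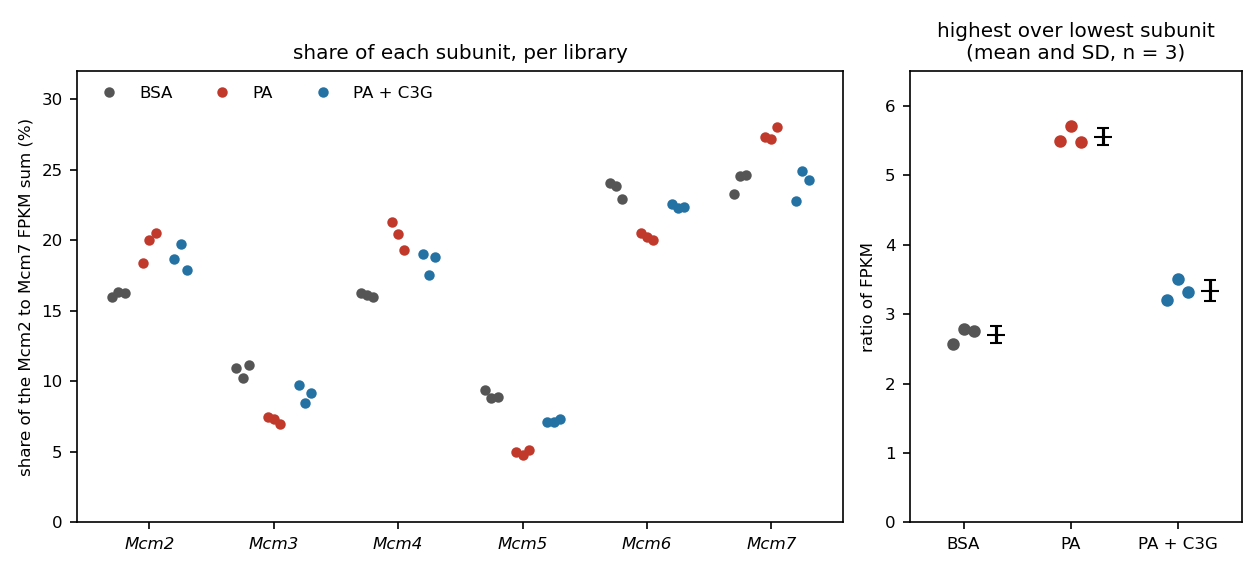
Left, share of each subunit in the summed Mcm2 to Mcm7 FPKM of its library (percent, linear axis from 0), by group. Right, ratio of the highest to the lowest subunit per library with mean and SD: 2.71 with BSA, 5.56 with PA and 3.34 with PA + C3G.

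The helicase partners Cdc45 and Mcm10 had lower fold changes with PA than any ring subunit. Their 95% confidence intervals (−2.63 to −2.08 and −2.85 to −2.0) both met that of Mcm5 (−2.09 to −1.89). On the log2(FPKM + 1) scale the falls of Cdc6, Cdc45 and Mcm10 were −1.63, −1.62 and −1.83 and that of Mcm5 was −1.87, so the order was not kept on that scale. Cdc45 (ENSRNOG00000050071, chromosome 11, 86329012 to 86358453, plus strand), which completes the active helicase together with GINS, was at 5.23, 4.60 and 5.23 FPKM with BSA, 1.10, 0.805 and 0.990 with PA, and 1.97, 1.78 and 1.79 with PA + C3G. The log2 fold change of Cdc45 was −2.35 (standard error 0.121, adjusted p = 3.15e-07) with PA and 0.97 (standard error 0.117, adjusted p = 0.00066) for PA + C3G versus PA. On the log2(FPKM + 1) scale the latter was 0.54.

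Mcm10 (ENSRNOG00000017981, chromosome 17, 77224112 to 77246478, plus strand) is not part of the ring despite its name. It was at 7.78, 6.17 and 7.68 FPKM with BSA, 1.69, 1.18 and 1.08 with PA, and 2.65, 1.96 and 2.18 with PA + C3G. The PA libraries held 299 to 581 estimated counts of it. Its standard errors were the largest of the 10, and the gap between the highest PA library (1.69) and the lowest PA + C3G library (1.96) was small. The log2 fold change was −2.43 (standard error 0.189, adjusted p = 4.58e-06) with PA and 0.82 (standard error 0.182, adjusted p = 0.0123) for PA + C3G versus PA, and the latter was 0.50 on the log2(FPKM + 1) scale. In the PA + C3G group Mcm10 stood lowest of the 10 relative to BSA, at 31.4% ± 4.86 (SD, n = 3), overlapping Cdc45 at 36.8% ± 2.08 (n = 3).

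In absolute level, per length, Mcm7 and Mcm6 led the BSA group at 73.2 and 71.6 FPKM and overlapped each other. Mcm2 and Mcm4, at 49.0 and 48.9 FPKM, also overlapped, and Mcm3, Mcm5, Cdt1, Mcm10, Cdc45 and Cdc6 followed, each separate from the next. In the PA group Mcm7 alone led at 37.6 FPKM, and Mcm4, Mcm6 and Mcm2 could not be told apart at 27.8, 27.7 and 26.8 FPKM. With PA + C3G the order was that of BSA, with overlap between Mcm2 and Mcm4 and among Mcm10, Cdc45 and Cdc6 at 2.26, 1.85 and 1.68 FPKM for each next pair.

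Promoters of 8 of the 10 genes could be matched by symbol to RefSeq windows of the GRCr8 assembly, from 250 bases before to 50 after a transcript start, and those of Mcm4 and Cdc6 could not. The letters searched on both strands were TTTCCCGC, TTTGGCGC, TTTCGCGC and TTTGCCGC for E2F-type elements, TTTGAA and TTCGAA for CHR elements, and CCAAT. E2F-type letters occurred in 6 of the 8 windows, against 2.25% of the 27457 windows of all genes and 4.22% of the 8999 windows matched to tested genes. CCAAT was present in 6 of the 8, against 37.7% of all windows and 38.0% of those matched to tested genes. CHR letters were in 2 of the 8, Mcm2 and Mcm7, against 19.5% and 12.9% of the same windows. Stretches from the 6 windows with E2F-type letters, around the match nearest the start, are shown 5′ to 3′ on the strand of the gene. E2F-type letters are in capitals, and the choice of genes did not use them.
Mcm2 (chr4:122918065-122918144, minus strand): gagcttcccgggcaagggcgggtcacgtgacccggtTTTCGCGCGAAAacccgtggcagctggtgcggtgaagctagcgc
Mcm3 (chr9:30733717-30733796, minus strand): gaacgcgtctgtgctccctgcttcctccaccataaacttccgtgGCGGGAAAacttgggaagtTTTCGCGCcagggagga
Mcm5 (chr19:13488763-13488842, plus strand): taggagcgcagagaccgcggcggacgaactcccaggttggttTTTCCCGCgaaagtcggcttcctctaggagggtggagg
Mcm6 (chr13:42404444-42404523, minus strand): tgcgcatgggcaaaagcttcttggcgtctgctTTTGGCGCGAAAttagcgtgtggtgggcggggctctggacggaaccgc
Mcm7 (chr12:22163187-22163266, minus strand): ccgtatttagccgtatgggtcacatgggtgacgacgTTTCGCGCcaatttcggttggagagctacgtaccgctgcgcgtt
Cdt1 (chr19:67529199-67529278, plus strand): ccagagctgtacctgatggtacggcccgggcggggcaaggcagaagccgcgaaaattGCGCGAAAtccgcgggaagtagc
In Mcm2 the capitals are TTTCGCGC on each strand overlapping itself, and in Mcm6 they are TTTGGCGC overlapping TTTCGCGC on the opposite strand. Mcm5 holds a further overlapping pair of E2F-type matches upstream of the stretch shown, beginning at positions −213 and −209 relative to the start. Mcm7 and Cdt1 also hold a match outside the stretch shown. In Mcm7 it is TTTCCCGC on the opposite strand at −233, and in Cdt1 it is TTTGGCGC at 33. The windows of Cdc45 and Mcm10 held none of the searched E2F-type letters and 4 and 2 CCAAT matches. Both windows held TTTGGCGG, which differs from the searched TTTGGCGC only in its last letter, and such variants were not counted. These matches are letters in a window, and no binding was measured in these files.

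The wider replication pathway was described with 5 lists of other genes, 53 of which were tested. Of the 53, 45 were lower and 3 higher in PA versus BSA, and their median log2 fold change was −0.98. In PA + C3G versus PA 27 were higher (18 without PA replicate 2) and 2 lower, with a median of 0.28, and in PA + C3G versus BSA 44 were lower and 1 higher, with a median of −0.73. By the fold criterion, 25 were lower and 1 was higher with PA.

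ORC itself was the exception among these lists, with 2 of 5 tested subunits lower with PA, 1 higher and a median of 0.03. Orc6 averaged 9.76 ± 1.02 FPKM in BSA, 3.35 ± 0.623 in PA and 5.17 ± 0.0642 in PA + C3G libraries (SD over 3 libraries). Both its fall and its rise passed the edgeR test (adjusted p = 2.05e-05 and 0.0116). Orc4 fell by 0.69 on the log2 scale with PA and was at a log2 fold change of 0.03 for PA + C3G versus PA (adjusted p = 0.859). Orc3 rose with PA by 0.22 (adjusted p = 0.0101). Its value for PA + C3G versus PA was −0.19 (adjusted p = 0.0438), a call lost in 11 of 19 alternatives with adjusted p up to 0.13. Orc1, the subunit whose level cycles in many cells, was below the filter. It was listed at 1.25, 1.52 and 1.83 FPKM with BSA, 0.267, 0.360 and 0.585 with PA, and 0.582, 0.646 and 0.629 with PA + C3G, with overlap between the last 2 groups.

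Of 6 genes around licensing, all 6 were lower with PA and 3 were higher in PA + C3G than in PA (Gmnn, Kat7 and Dtl). Dtl, which targets Cdt1 for destruction in S phase, had the smallest p of this list in both comparisons, with log2 fold changes of −2.35 (adjusted p = 4.92e-08) and 0.92 (adjusted p = 0.000182). Gmnn changed by −1.80 and 0.65 (adjusted p = 1.56e-05 and 0.0217), and the latter call was lost without PA replicate 2 or 3 or PA + C3G replicate 1 or 3 (adjusted p up to 0.0808). The MCM relatives outside the ring, Mcm8 and Mcm9, act mainly in recombination repair. They changed by −1.30 and −0.35 with PA (adjusted p = 0.000244 and 0.00471), and their values for PA + C3G versus PA were 0.01 and 0.18 (adjusted p = 0.979 and 0.153).

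Of 12 genes of helicase activation and origin firing, 11 were lower with PA and 7 were higher with C3G. Topbp1, a scaffold for loading Cdc45, changed by −1.19 and 0.34 (adjusted p = 5.99e-07 and 0.00733), and the GINS subunit Gins1 by −2.09 and 0.96 (adjusted p = 4.19e-06 and 0.00304). The firing kinase subunits differed in the second comparison. Cdc7 changed by −1.22 and then 0.37 (adjusted p = 6.93e-07 and 0.006), whereas its activator Dbf4 changed by −0.96 with PA (adjusted p = 0.00101) and stood at −0.05 for PA + C3G versus PA (adjusted p = 0.876). The difference between these 2 genes was not tested.

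All 16 replisome genes were lower with PA, and 10 were higher in PA + C3G than in PA. Pole, the leading-strand polymerase subunit, changed by −2.08 and 0.71 (adjusted p = 8.29e-08 and 0.0005). Rpa1, which coats single-stranded DNA, changed by −1.40 and 0.66 (adjusted p = 2.43e-07 and 0.000304).

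Of 14 E2F and G1/S regulators tested, 10 were lower and 2 higher with PA, and 6 were higher and 1 lower with C3G. E2f8, a repressor that is itself an E2F target, averaged 16.1 ± 1.68 FPKM in BSA, 2.51 ± 0.0395 in PA and 4.84 ± 0.290 in PA + C3G libraries (SD over 3 libraries), with edgeR adjusted p = 4.72e-08 and 0.00021 for the fall and the rise. Cyclin D1 (Ccnd1), which acts upstream of E2F, went the other way, averaging 0.350 ± 0.0917 FPKM in BSA, 2.59 ± 0.0599 in PA and 2.17 ± 0.232 in PA + C3G libraries (SD over 3 libraries). It rose with PA by 2.91 on the log2 scale (adjusted p = 1.95e-06 by edgeR), from 66 to 98 estimated counts in the BSA libraries. On the log2(FPKM + 1) scale, where the added 1 exceeds the BSA level, the rise was 1.41. The inhibitor Cdkn1b rose by 0.22 with PA and fell by 0.20 with C3G (adjusted p = 0.000656 and 0.0043). Rb1 was below the filter, and no gene named E2f1 was found in the expression table, so E2f1 has no values here.

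**Figure D4:**
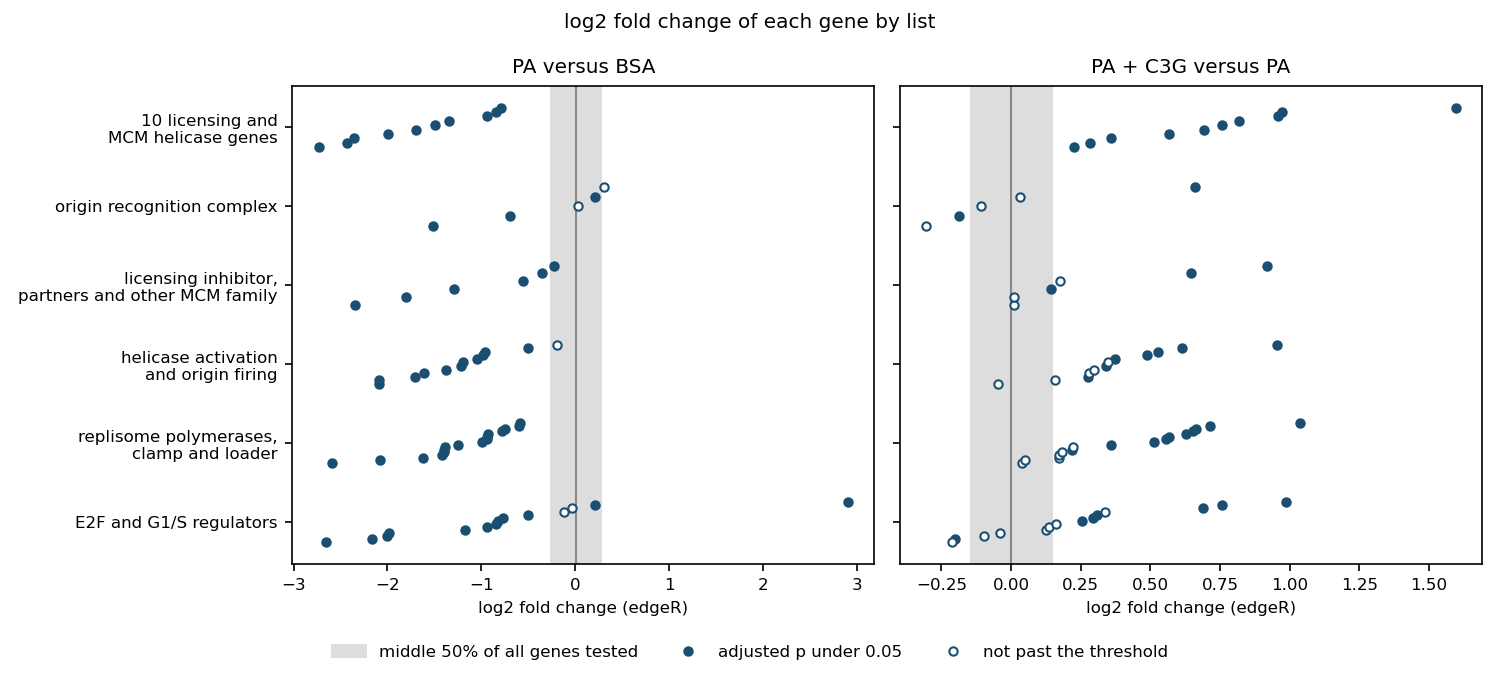
log2 fold change (x axis) of each tested gene by list, filled where the adjusted p-value was under 0.05, for PA versus BSA and PA + C3G versus PA, with the middle 50% of all 12958 genes in grey. All 10 licensing and helicase genes lie outside the grey band in both panels, and Ccnd1 lies apart at 2.91 in the left panel.

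In all, 6 markers of cycling cells, mostly of later cell cycle phases, were measured beside these genes. All 6 fell in the PA group, by a median of −1.69 on the log2 scale, and their summed level was 277.1 to 315.6 FPKM with BSA and 85.2 to 96.6 with PA. With PA + C3G the sum was 90.3 to 97.0 FPKM, overlapping the PA libraries. Mki67 and Top2a rose with C3G by 0.44 and 0.49 on the log2 scale (adjusted p = 0.00123 and 0.00308), while Ccnb1 and Aurkb fell by 0.32 and 0.48 (adjusted p = 0.0162 and 0.00194), the call of Ccnb1 being lost without PA replicate 1 (adjusted p = 0.0509). Cdk1 and Bub1 were at 0.11 and 0.16 (adjusted p = 0.591 and 0.241). The median of these 6 in PA + C3G versus PA was 0.14, beside 0.72 for the 10 licensing and helicase genes. In bulk libraries, fewer cells in a phase of the cycle and less RNA per cell cannot be told apart, and the part of either in these values was not tested.

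Across the 9 libraries the 10 genes moved closely together, with Pearson's r of log2 counts, scaled to library size, between pairs from 0.923 to 0.996 and a median of 0.978 over 45 pairs. These points share the 3 group means, so the correlations describe the groups more than the replicates. The genes outside the 10 with the pattern most like their mean were Ivd (r = 0.999), an enzyme of leucine breakdown, Dusp10 (r = 0.997), a phosphatase of stress kinases, Rpa1 (r = 0.996), the matrix proteoglycan Spock3 (r = 0.996) and the histone chaperone Anp32b (r = 0.996), each over 9 libraries. Their amplitudes differed, with Spock3 at 23.3% and 39.2% of its BSA level in the PA and PA + C3G groups and Anp32b at 80.8% and 86.3%.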

How the data were processed

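The authors deposited 1 table of estimated counts and FPKM per gene for 9 libraries. Their processing notes name cutadapt 1.9, HISAT2 2.0.4, StringTie 1.3.4d, DESeq2 and edgeR; the genome build and the way reads were assigned to strands are not given in the sources used here. The deposited estimated counts pile up at multiples of 4 without being confined to them, for a reason that was not tested, and counts divided by 4 were tried as an alternative. Here the counts were rounded and tested with edgeR 4.0.16 (R 4.3.3) by the quasi-likelihood test with TMM scaling, all 9 libraries in 1 fit, for the 12958 genes whose mean FPKM reached 1, and p-values were adjusted over all of them at a threshold of 0.05. limma 3.58.1 and DESeq2 1.42.0 served as alternatives. The procedure was tested on simulated data. Named genes were the 10 members, the gene with the smallest p of each pathway list in PA versus BSA and in PA + C3G versus PA, genes changed against their list's direction, Gmnn, Orc1, Orc6, Cdc7, Dbf4, E2f1 and Dtl, and the 5 genes most like the members' mean. The other genes named beside these were picked after their values were seen. The genes and lists were chosen with earlier results of these data known. No protein sequence was analysed here. No 2 replicates of a group were near-identical. Their median chi-square per gene, on counts divided by 4, was 0.91 to 1.52 against 0.455 from sampling alone. That divisor is an assumption, and the chi-square values depend on it.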

Additional observations from a re-analysis of the deposited data

How the results depend on the processing

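Under 19 alternatives (other scaling, tools, filters, samples in the fit and each library left out), all 561 values for the 10 genes kept their direction and their side of the threshold. A minimum mean of 5 FPKM left Mcm10, Cdc6 and Cdc45 out of the fit. The highest adjusted p was 0.0477, for Mcm10 in PA + C3G versus PA without PA replicate 3. Over all genes, deviations of same-numbered libraries from their group means had r of −0.0918 to 0.0796 over 9 pairs. These values cannot decide whether the libraries were paired, and Gcg and Nkx6-1 each ranked the replicates alike in all 3 groups. With a replicate block the 10 genes were all still called in each comparison.

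The fold criterion changed the counts by its own construction. By it the 10 genes gave 7 lower with PA, 1 higher in PA + C3G versus PA and 4 lower in PA + C3G versus BSA, and the pathway lists gave 25 lower and 1 higher with PA, 1 higher and 0 lower in PA + C3G versus PA, and 17 lower and 1 higher (Ccnd1) in PA + C3G versus BSA. The 2 pathway genes that fell with C3G (Orc3 and Cdkn1b) became 4 under TPM scaling, 1 without a filter, 1 with only the compared groups in the fit, and 1 to 2 when a library was left out, and the cause was not tested. Without BSA replicate 1 or 3, any PA replicate, or PA + C3G replicate 2 or 3 there was 1. The 27 that were higher in that comparison became 20 under TPM scaling, 18 without PA replicate 2, and 19 without PA replicate 3 or PA + C3G replicate 1. Orc3 lost its call in 11 of 19 alternatives. With a minimum of 5 FPKM, Ccnd1 was not in the fit and 0 pathway genes were higher in PA + C3G than in BSA. Among the other genes named, values near 0 in PA + C3G versus PA changed sign. Orc4 was at −0.056 under TPM scaling and −0.0023 and −0.0024 with limma on log2(FPKM + 1) and log2(FPKM + 0.1), and Mcm8 at −0.082, −0.025 and −0.041. With a library left out, Orc4 lay between −0.034 and 0.11, Mcm8 between −0.13 and 0.17, Dbf4 between −0.15 and 0.067 and Cdk1 between −0.028 and 0.23, and for PA versus BSA Nkx6-1 lay between −0.077 and 0.18. Among the 10 licensing and helicase genes, the lowest estimated counts were those of Cdc6 in the PA libraries, 101 to 121.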
